A study of Mus musculus with 21 samples.

Results

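The genes described here encode the cytokines of the interleukin-6 (IL-6) family that were followed in mouse colon, their receptor chains and their feedback inhibitor. There are 10 of them among the 24062 genes of the count table: the ligands Il6, Il11, Lif, Osm and Clcf1, the receptor chains Il6ra, Il6st, Lifr and Osmr, and Socs3. They were selected by gene symbol as parts of 1 receptor system, with earlier results of these libraries already known. Counts of these genes that passed a test are therefore descriptions, read beside the share of all genes that passed. All 10 passed the filter on low counts, as did 15936 genes of the table.

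Cytokines of this family signal through receptor complexes that contain gp130, the shared signalling chain encoded by Il6st. IL-6 and IL-11 use gp130 together with Il6ra or Il11ra1, whereas LIF, oncostatin M and cardiotrophin-like cytokine signal through gp130 paired with the chains encoded by Lifr or Osmr. The paired chains activate JAK kinases and the transcription factor STAT3, and STAT3 induces Socs3, whose protein binds gp130 and JAK kinases and limits the signal. In colon this pathway is known for epithelial repair after injury and for its part in inflammation-associated tumours, where IL-11 comes largely from stromal cells.

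RNA was sequenced from 21 colon samples of C57BL/6 mice, 3 in each of 7 groups. Wild-type males, wild-type females, App NL-G-F knock-in males and App NL-G-F knock-in females each gave normal colon, labelled as not treated. Tumours, labelled as AOM/DSS (the carcinogen azoxymethane with the irritant dextran sulfate sodium), came from wild-type males, wild-type females and knock-in males. Knock-in female tumours were not analysed here. App NL-G-F mice carry a humanised amyloid precursor protein sequence with familial Alzheimer's disease mutations in the mouse App gene, so the normal App promoter drives it in every cell that uses App. The study's design text speaks of normal tissue beside tumours, or of normal colon where none formed, so the labels do not settle whether the normal samples came from treated mice. Ages are not given in the labels used here, nor is it stated that the 3 samples of a group are 3 animals, so p-values measure the spread between these samples.

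Library totals ran from 3414123 counts (wild-type male tumour replicate 2) to 26174008 (wild-type female normal replicate 1). Levels are CPM, counts scaled to the library's total after TMM normalisation. App, the targeted gene, was counted at 450 to 1004 CPM in wild-type libraries and at 489 to 716 CPM in knock-in libraries, and gene counts cannot separate the mutant sequence. App was higher in wild-type male tumours than in normal colon (0.46 ± 0.16, adjusted p = 0.0341) and, among male tumours, lower in the knock-in mice (-0.59 ± 0.16, adjusted p = 0.0251, with no overlap). Epithelial markers summed to 4558 to 8204 CPM in the 21 libraries, with none of the 7 at 0. Smooth muscle markers summed to 1909 to 9365 CPM in normal samples and to 198 to 1003 CPM in tumours, and neutrophil markers to 1.89 to 24.9 CPM in normal samples and 33.1 to 167 CPM in tumours. These differences in cell content run alongside every tumour comparison below and their part in the results was not tested. In bulk tissue, fewer cells of a type and less RNA per cell cannot be told apart.

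The sequence before the start of the genes is shown first, because motifs there are a feature that the choice by symbol did not use. RefSeq sequence (GRCm38.p6) was found for 8 of the 10 genes, in 10 promoter entries. Osm and Clcf1 are named only. Both strands of the 250 bases before each start were searched for the AP-1 motif TGANTCA, the STAT motifs TTCCNGGAA and TTCNNNGAA (the first is contained in the second), the NF-kB motif (GGGA, any 2 bases, then TTCC), the C/EBP motif TTGCNNAA and the cyclic AMP response element TGACGTCA. Il11 (1 of its 2 entries), Lif and Il6 each held the AP-1 motif, which 6.75% of 32851 promoters of the same length hold. Of these 8 genes only Socs3 held a STAT motif, TTCNNNGAA (7.02% of promoters), and Il6 also held the NF-kB motif (1.21%) and the C/EBP motif (9.56%). The longer STAT motif (0.913%) and the cyclic AMP element (1.55%) were found in none of the 10 entries. A match is a description of letters, not of a bound site. The stretches of 60 bases around the matches are printed 5′ to 3′ on the gene's strand, with the motif in capitals.
Il11, chr7:4778206-4778265, minus strand, AP-1 from -98 to -92: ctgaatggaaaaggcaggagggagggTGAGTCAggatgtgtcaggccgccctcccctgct
Lif, chr11:4257318-4257377, plus strand, AP-1 from -228 to -222: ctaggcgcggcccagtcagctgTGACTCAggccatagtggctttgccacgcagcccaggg
Il6, chr5:30012864-30012923, plus strand, AP-1 from -249 to -243: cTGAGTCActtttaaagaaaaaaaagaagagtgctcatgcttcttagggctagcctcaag
Il6, chr5:30013044-30013103, plus strand, NF-kB from -44 to -35: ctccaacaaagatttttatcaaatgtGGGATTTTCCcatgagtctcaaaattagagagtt
Socs3, chr11:117969487-117969546, minus strand, STAT from -154 to -146: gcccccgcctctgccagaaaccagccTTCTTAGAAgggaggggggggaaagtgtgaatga

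In the fit of all 21 libraries, Il11 rose and Il6ra fell in tumours against normal colon in all 3 comparisons. In fits of the compared groups alone, Il11 did not pass in wild-type males and Il6ra did not pass in males of either genotype. In wild-type females 7 of the 10 genes rose and 1 fell, against 49.1% of all genes called in either direction (adjusted p under 0.05, edgeR's quasi-likelihood test, Benjamini-Hochberg over 15936 genes). In wild-type males 4 rose and 1 fell, against 35.7% of all genes. In knock-in males 1 rose and 1 fell, against 20.4% of all genes. The median log2 fold change of the 10 genes was 1.19 in wild-type females, 1.65 in wild-type males and 0.67 in knock-in males, beside 0.0081, 0.0054 and 0.0066 for all genes tested.

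**Figure D1:**
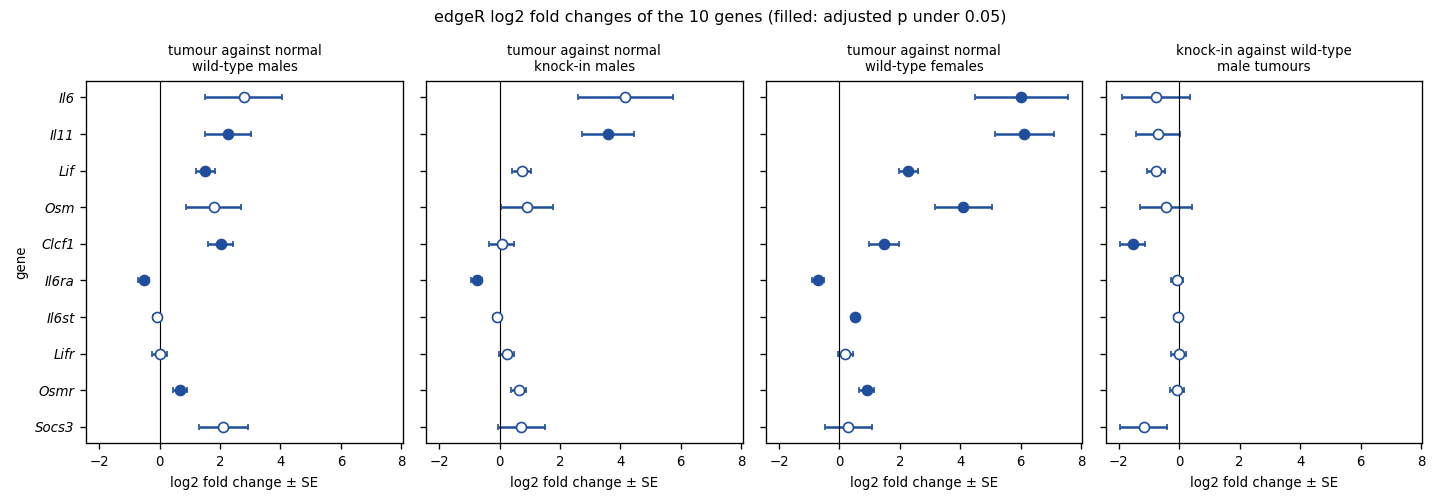
log2 fold change (x axis, with standard error) of the 10 genes (y axis) in the 3 tumour comparisons and between knock-in and wild-type male tumours. Filled points passed an adjusted p of 0.05. Il11 is filled in all 3 tumour panels with values of 2.27, 3.58 and 6.12, and Il6ra is filled on the lower side of each.

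Il11 (chr7:4772373-4782859, minus strand, GRCm38), which encodes a stromal cytokine that acts on epithelium and fibroblasts, was the only ligand that rose in all 3 tumour comparisons. In wild-type females its normal libraries read 0.803, 0.557 and 0.619 CPM and its tumours 31.6, 58.5 and 58.2 CPM. Knock-in males read 1.68, 0.633 and 1.30 CPM in normal colon and 6.81, 19.3 and 16.2 CPM in tumours. Wild-type males read 1.61, 12.3 and 0.398 CPM in normal colon and 14.7, 40.2 and 16.2 CPM in tumours. No tumour library overlapped the normal libraries of its own sex and genotype, although normal replicate 2 of the wild-type males stood well above the other 2. The log2 fold changes were 6.12 ± 0.98 (SE, adjusted p = 9.08e-05) in wild-type females, 3.58 ± 0.87 (adjusted p = 0.0115) for the knock-in males and 2.27 ± 0.77 (adjusted p = 0.0308) for the wild-type males. In wild-type males the Il11 call was lost without normal replicate 1 (adjusted p = 0.112), normal replicate 3 (0.0876) or tumour replicate 2 (0.121). It was lost too in an edgeR fit of the compared groups alone (adjusted p = 0.153). With replicate 2 of both wild-type male groups left out, a setting chosen after the data were seen, Il11 gave 3.79 (adjusted p = 0.000541). The Il11 difference between sexes in the size of the tumour change was 3.85 ± 1.21 on the log2 scale and did not pass the test in edgeR (adjusted p = 0.139). It passed in DESeq2 (0.049) and, in edgeR, without wild-type male normal replicate 3 (0.0323). Fibroblast markers summed to 1836 to 2939 CPM in female tumours and 1193 to 1424 CPM in female normal colon (6 of 10 higher, 2 lower). In wild-type males the sums were 2305 to 2727 and 2454 to 2754 CPM (0 higher, 2 lower), and in knock-in males 2879 to 4200 and 2297 to 3708 CPM (2 higher, 0 lower). Of all genes, 49.1%, 35.7% and 20.4% were called in wild-type females, wild-type males and knock-in males. None of the fibroblast markers was at 0 in any library, and their part in the Il11 result was not tested.

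Il6 (chr5:30013114-30019981, plus strand), the founding cytokine of the family, was counted less often than Il11 in every library. Its 3 wild-type female tumours read 3.53, 5.26 and 4.78 CPM, whereas the matching normal libraries held 0 to 1 count each. That is 115 counts against 2 over the group, a scaled ratio of 85.4 with a 95% exact counting interval of 23.1 to 714. The female log2 fold change was 6.02 ± 1.55 (adjusted p = 0.0037). In knock-in males 50 tumour counts stood against 2 normal counts (ratio 22.8, interval 5.98 to 193), and the libraries did not overlap (0.340 to 2.13 against 0 to 0.0935 CPM), but the fit did not pass (log2 fold change 4.17 ± 1.58, adjusted p = 0.0686, against 0.035 in DESeq2). In wild-type males 1 library set the value: tumour replicate 2 held 25 of the group's 30 counts, at 7.28 CPM, while tumour replicate 3 held 0, which allows up to 0.276 CPM. The male fold change of 2.79 ± 1.28 (adjusted p = 0.0978, against 0.049 in DESeq2) turned to -0.47 (adjusted p = 0.8) without that library, the shallowest of the 21, and passed at 3.56 (adjusted p = 0.024) without tumour replicate 3. The counting intervals and the limit at 0 counts cover counting error only.

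Lif (chr11:4257557-4272514, plus strand) encodes leukaemia inhibitory factor. It read 28.7, 14.2 and 18.3 CPM in wild-type female tumours against 4.18, 3.07 and 5.26 CPM in normal colon, and 10.7, 22.7 and 12.9 CPM in wild-type male tumours against 4.82, 6.81 and 4.08 CPM. Lif rose by 2.29 ± 0.33 on the log2 scale (adjusted p = 1.75e-05) and by 1.52 ± 0.32 (adjusted p = 0.00132), and both calls held with any 1 library left out. Knock-in male tumours read 7.21, 8.46 and 10.9 CPM, above their normal libraries at 4.39 to 6.22 CPM, and their range overlapped that of the wild-type male tumours. Their Lif difference of 0.74 ± 0.31 did not pass (adjusted p = 0.0986). The 12 normal libraries lay between 3.07 and 6.81 CPM whatever the sex or genotype.

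Osm (chr11:4236420-4241026, plus strand), which encodes oncostatin M, a product mainly of myeloid cells, lies close to Lif on the same chromosome. It was near the counting limit in normal colon, at 0 to 1.56 CPM, and read 11.1, 4.45 and 7.07 CPM in wild-type female tumours. The female rise was 4.10 ± 0.95 (adjusted p = 0.00157) and held with any 1 library left out. Male tumours overlapped their normal libraries in both genotypes, at 0.645 to 5.53 CPM in wild-type and 0.476 to 2.66 CPM in knock-in mice, with adjusted p of 0.136 and 0.467. Neutrophil markers rose with Osm in wild-type female tumours, where all 6 measured passed, beside 49.1% of all genes called. They summed to 55.9 to 167 CPM there, against 3.0 to 7.53 CPM in normal colon. Wild-type male tumours had 2 of 6 higher (33.1 to 65.2 against 1.89 to 24.9 CPM), beside 35.7% of all genes called. Knock-in male tumours had 0 of 6 higher (34.4 to 54.1 against 9.18 to 21.3 CPM), beside 20.4% of all genes called. For both male genotypes these sums did not overlap between tumour and normal colon, whereas Osm did. No neutrophil marker was at 0 in any tumour. In normal libraries Cxcr2, Retnlg, Mmp8, S100a8 and S100a9 were each at 0 in some. The part of neutrophil content in the Osm result was not tested.

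Clcf1 (chr19:4214238-4223490, plus strand) encodes cardiotrophin-like cytokine factor 1, and its pattern departed from that of the other ligands. It was highest in wild-type male tumours, at 5.98, 7.86 and 8.38 CPM. Every other library was at 3.12 CPM or below. Wild-type male normal colon read 3.12, 1.42 and 0.696 CPM, knock-in male normal colon 2.62, 1.77 and 2.85 CPM, and knock-in male tumours 2.79, 2.48 and 2.25 CPM. In females the tumours read 1.22, 2.11 and 1.96 CPM against 0.676, 0.279 and 0.929 CPM in wild-type normal colon. Clcf1 rose in wild-type male tumours by 2.02 ± 0.41 (adjusted p = 0.00108), a call that any 1 library left out did not change, and by 1.47 ± 0.49 in wild-type female tumours (adjusted p = 0.0177). The female call was lost without normal replicate 1 (adjusted p = 0.0506) or 2 (0.0689) and without tumour replicate 2 (0.0568) or 3 (0.0503). In knock-in males the Clcf1 difference was 0.07 ± 0.41 (adjusted p = 0.924, 95% interval -0.73 to 0.86).

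**Figure D2:**
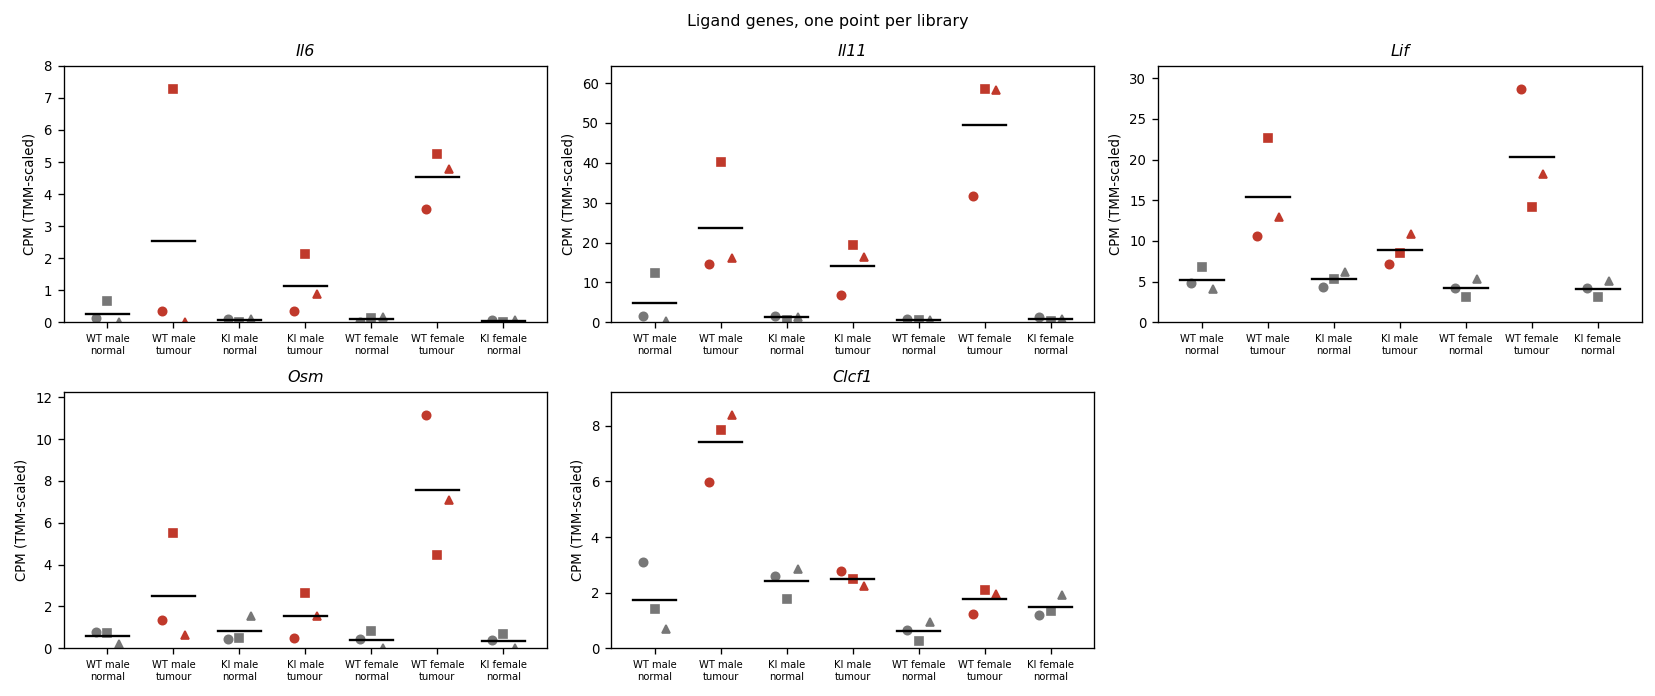
CPM (y axis, linear from 0) of the 5 ligand genes in each library, by group on the x axis (WT, wild-type; KI, App NL-G-F knock-in), with red tumours, grey normal samples and a bar at the group mean. Marker shapes separate the replicates of a group. Il11 tumours sit at 6.81 to 58.5 CPM, and Clcf1 is above 3.12 CPM only in wild-type male tumours.

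Among the receptor chains, Il6ra (chr3:89864059-89913196, minus strand), the binding chain for IL-6, fell in all 3 tumour comparisons. It read 14.0, 13.1 and 20.4 CPM in wild-type male tumours against 22.2 to 24.2 CPM in normal colon, 19.3, 14.0 and 11.9 CPM in knock-in male tumours against 22.8 to 29.3 CPM, and 9.78, 11.2 and 12.2 CPM in wild-type female tumours against 15.2 to 21.4 CPM. The groups did not overlap in any of the 3 comparisons. Il6ra fell by 0.53 ± 0.19 (adjusted p = 0.0343), 0.75 ± 0.18 (adjusted p = 0.0102) and 0.71 ± 0.19 (adjusted p = 0.00476) on the log2 scale. The wild-type male call for Il6ra was lost without normal replicate 2 (adjusted p = 0.0542) or 3 (0.0995) and without tumour replicate 1 (0.127) or 2 (0.122). The knock-in call was lost without normal replicate 3 (0.0558), and the female call held with any 1 library left out. In edgeR fits of the compared groups alone, the Il6ra calls in wild-type males (adjusted p = 0.0508) and knock-in males (0.0779) were lost.

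Osmr (chr15:6813577-6874969, minus strand), the oncostatin M receptor chain, moved the other way. Wild-type female tumours read 67.2, 62.3 and 65.5 CPM against 26.3, 44.5 and 34.5 CPM in normal colon, a rise of 0.90 ± 0.24 (adjusted p = 0.00442). Wild-type male tumours read 48.7, 50.6 and 39.0 CPM against 35.2, 35.3 and 15.7 CPM, a rise of 0.67 ± 0.24 (adjusted p = 0.0363). Knock-in male tumours read 37.7, 51.3 and 42.2 CPM against 26.4, 28.7 and 29.8 CPM. There the Osmr difference was of like size, 0.63 ± 0.24, and missed the threshold (adjusted p = 0.0661). No tumour group overlapped its normal group. The wild-type male Osmr call was lost without normal replicate 3 (adjusted p = 0.164, fold change 0.38), tumour replicate 1 (0.111) or tumour replicate 2 (0.0979). It was lost too in an edgeR fit of the compared groups alone (adjusted p = 0.144).

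Il6st (chr13:112464070-112510086, plus strand), which encodes gp130, and Lifr (chr15:7090614-7197489, plus strand), its partner for LIF, had the smallest ratios of highest to lowest library among the 10 genes. Il6st lay between 135 and 238 CPM in all 21 libraries. It rose by 0.53 ± 0.12 in wild-type female tumours (adjusted p = 0.000953), at 205, 196 and 228 CPM against 135, 155 and 146 CPM, and this call held with any 1 library left out. In males the Il6st tumour difference was -0.09 ± 0.12 in wild-type mice (adjusted p = 0.574) and -0.09 ± 0.11 in knock-in mice (adjusted p = 0.585). The difference between sexes in the Il6st tumour change was 0.62 ± 0.16 and did not pass in edgeR with TMM scaling (adjusted p = 0.0673). It passed with library totals (0.0425), in DESeq2 (0.0217), in limma voom (0.00457) and without wild-type male normal replicate 3 (0.0323). Endothelial markers had 3 of 5 higher in female tumours and none at 0, beside 49.1% of all genes called. They summed to 141 to 219 CPM there and 70.2 to 98.3 CPM in female normal colon. Their part in the Il6st result was not tested. Lifr, at 39.2 to 105 CPM over all libraries, passed in none of the 3 tumour comparisons, with log2 fold changes between 0.0048 and 0.24 and adjusted p of 0.991, 0.513 and 0.528. Without wild-type female normal replicate 3, its highest library of that group, Lifr passed in the female tumour comparison (0.61, adjusted p = 0.027).

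Socs3 (chr11:117966079-117970047, minus strand), the feedback inhibitor, varied widely within groups. Wild-type male tumours read 74.4, 172 and 67.1 CPM against 26.8, 36.8 and 7.46 CPM in normal colon. The groups did not overlap and the difference was 2.11 ± 0.80, with an adjusted p of 0.052 in edgeR, 0.0167 in DESeq2 and 0.0214 in limma voom. Knock-in male tumours overlapped their normal colon, at 24.3, 47.7 and 66.0 CPM against 31.3, 16.0 and 36.6 CPM (0.72 ± 0.78, adjusted p = 0.532). Wild-type female tumours were close together at 103, 88.5 and 89.3 CPM, but the normal libraries read 17.1, 191 and 22.8 CPM. Normal replicate 2 was thus the highest Socs3 library of all 21, and the female tumour difference was 0.30 ± 0.77 (adjusted p = 0.773). Without that library it was 2.24 and passed (adjusted p = 0.01). It was -0.19 without normal replicate 1 and -0.13 without normal replicate 3 (adjusted p = 0.862 and 0.909), and limma voom with quality weights called it on all libraries (1.78, adjusted p = 0.0117). Osmr was also highest of the female normal group in that library, at 44.5 CPM.

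**Figure D3:**
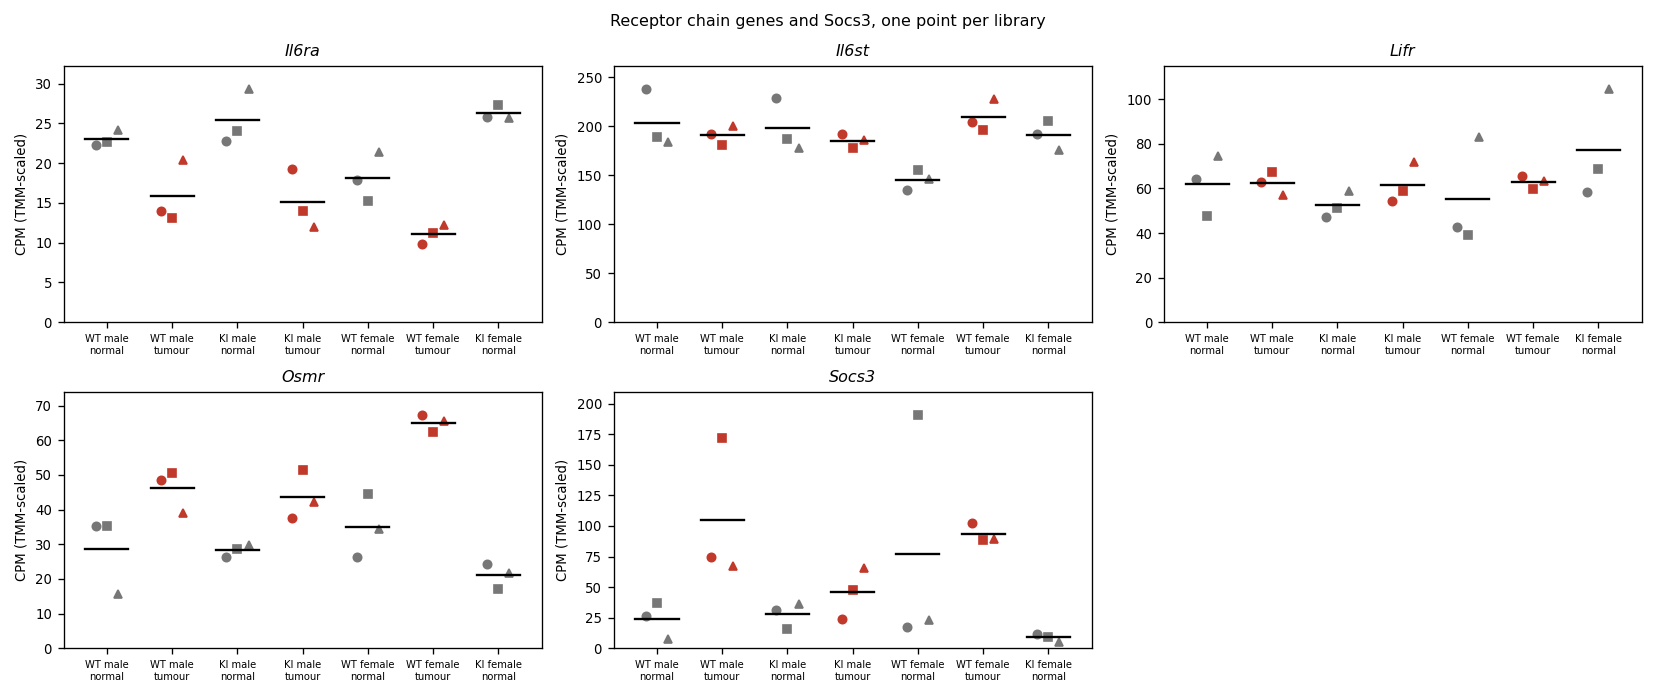
CPM (y axis, linear from 0) of the 4 receptor chain genes and Socs3 in each library, grouped and coloured as in the plot of the ligands, with a bar at the group mean. Il6ra tumours lie below and Osmr tumours above their own normal groups. The highest Socs3 point, at 191 CPM, is a wild-type female normal library.

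Levels can be set against each other only per length of exon. In CPM per kilobase of exon, Il6st stood above Lifr in 21 of 21 libraries and Lifr above Osmr in 20. Osmr stood above Il6ra in 9 of 9 tumours but in 5 of 12 normal libraries. Group means of Osmr were 2.34 ± 0.15 in knock-in male normal colon and 3.61 ± 0.57 in their tumours (SD, n = 3), while Il6ra went from 2.94 ± 0.40 to 1.74 ± 0.44 CPM per kilobase. Among the ligands, Il11 was the highest per length in 9 of 9 tumours and in 1 of 12 normal libraries, the wild-type male replicate 2, and Lif was the highest in the other 11. Il11 exceeded Il6 per length in 21 of 21 libraries. In wild-type female tumours Il11 averaged 23.8 ± 7.4 CPM per kilobase, Lif 4.68 ± 1.72, Osm 3.32 ± 1.48, Il6 1.86 ± 0.37 and Clcf1 0.463 ± 0.124. There the ranges of Lif and Osm overlapped, as did those of Osm and Il6, and that of Il11 overlapped none of the other 4.

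The comparison of knock-in with wild-type male tumours asked whether the App mutations go with another level of these genes in tumours. Of the 10 genes, 1 passed, against 14.5% of all genes. Clcf1 was lower in knock-in tumours by 1.55 ± 0.40 on the log2 scale (adjusted p = 0.0212), 2.92-fold, and the groups did not overlap. The Clcf1 call was lost without wild-type tumour replicate 2 (adjusted p = 0.0504) or 3 (0.0743) and without knock-in tumour replicate 2 (0.0725). All 10 point estimates were on the lower side, with a median of -0.57 beside 0.053 for all genes, and 9 did not pass. Scaled ratios of summed counts did not keep that direction for Il6 (1.12, 95% counting interval 0.70 to 1.83) and Osm (1.02, 0.69 to 1.52). The ratios of the other genes were below 1. For Il6 and Osm the highest wild-type male tumour was replicate 2, the shallowest library, at 7.28 and 5.53 CPM. Lif was at -0.77 ± 0.31 (adjusted p = 0.095), Socs3 at -1.17 ± 0.78 (adjusted p = 0.313, with no overlap between the groups), Il11 at -0.70 ± 0.72 (adjusted p = 0.523) and Osmr at -0.07 ± 0.24 (adjusted p = 0.859). Macrophage and monocyte markers summed to 153 to 220 CPM in knock-in and 223 to 350 CPM in wild-type male tumours, where 2 of 7 were lower and none was at 0. Other sums also separated these tumours. Mesothelial markers, some at 0 in both groups, summed to 12.9 to 19.1 against 28.5 to 44.8 CPM. Smooth muscle markers summed to 857 to 1003 against 222 to 768 CPM. Fibroblast markers summed to 2879 to 4200 against 2305 to 2727 CPM, and epithelial markers to 5582 to 6337 against 5102 to 5327 CPM. The part of these tissue differences in the Clcf1 difference was not tested. As to whether the tumour change itself differed by genotype, 0 of the 10 genes passed the interaction test in edgeR, against 1.51% of all genes. At an unadjusted p under 0.05 there was 1, Clcf1 (-1.95 ± 0.58, adjusted p = 0.068), beside 4023 of the 15936 genes tested. Clcf1 was called by DESeq2 (6.33% of all genes in that fit) and not by limma voom (7.22%). In edgeR it passed without wild-type normal replicate 1 (adjusted p = 0.0365) or knock-in normal replicate 2 (0.0282).

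Between the genotypes in male normal colon 0 of the 10 genes passed in edgeR, DESeq2 or limma voom, against 0.0126% of all genes. At an unadjusted p under 0.05 there was 1, beside 532 of the 15936 genes tested. That gene was Il11, at -2.02 ± 0.88. This value rested on wild-type normal replicate 2 and became 0.06 without it. In females 2 of the 10 passed, against 16.0% of all genes. Il6st was higher in knock-in normal colon, at 192, 205 and 176 CPM against 135 to 155 CPM (0.40 ± 0.12, adjusted p = 0.0264). Socs3 was lower, at 12.1, 9.22 and 5.28 CPM against 17.1, 191 and 22.8 CPM (-3.09 ± 0.85, adjusted p = 0.0239). Neither pair of groups overlapped. Without wild-type normal replicate 2 the Socs3 difference shrank to -1.15 (adjusted p = 0.283), and its call was also lost without knock-in replicate 1 (0.052), a (0.0887) or b (0.0817). It was lost too in limma voom (-1.59, adjusted p = 0.153) and in a fit of these 6 libraries alone (0.158). The Il6st call was lost without wild-type replicate 1 (0.117) or 2 (0.051) and without knock-in replicate 1 (0.056) or a (0.12). Replicates a and b are the 2 columns that share a name in the deposited header.

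Osmr and Il6ra came close to the threshold in female normal colon. Osmr read 24.3, 17.2 and 21.8 CPM in knock-in against 26.3 to 44.5 CPM in wild-type samples (-0.72 ± 0.24, adjusted p = 0.0503), and Il6ra 25.8, 27.3 and 25.6 CPM against 15.2 to 21.4 CPM (0.53 ± 0.18, adjusted p = 0.0557). Neither gene overlapped between the groups. Osmr passed in DESeq2 (adjusted p = 0.0297), in a fit of these 6 libraries alone (0.0408) and without wild-type replicate 1 (0.0386). Il6ra passed in 5 alternatives, with adjusted p from 0.00972 in limma voom to 0.0415 for genes with a mean of at least 50 counts, and without wild-type replicate 3 (0.0351). Lifr, at 0.50 ± 0.25 (adjusted p = 0.18), passed without wild-type replicate 3 (0.91, adjusted p = 0.00839). Other tissue markers moved between the same samples, where 16.0% of all genes were called. Smooth muscle markers (4 of 8 higher) summed to 6625 to 9365 CPM in knock-in and 1909 to 4435 CPM in wild-type female normal colon, and endothelial markers (4 of 5 higher) to 165 to 180 against 70.2 to 98.3 CPM, with none at 0 in either group. Fibroblast markers (4 of 10 higher, none at 0) summed to 2256 to 2823 against 1193 to 1424 CPM. Mesothelial markers (4 of 4 lower) summed to 1.24 to 2.50 against 2.17 to 27.4 CPM, with Upk3b at 0 in all 3 knock-in libraries and Lrrn4 in 2. The part of these tissue differences in these gene results was not tested. For the difference between sexes in the genotype effect, 0 of the 10 genes passed in edgeR against 2.54% of all genes. At an unadjusted p under 0.05 there were 3, Il6st, Lifr and Socs3, beside 2828 of the 15936 genes tested. Of the 10, 1 passed in DESeq2 (4.39% of all genes in that fit) and 0 in limma voom (6.86%). Lifr passed in edgeR without wild-type female replicate 3 (adjusted p = 0.0291).

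Between sexes, 1 of the 10 genes passed in wild-type tumours, against 0.860% of all genes. This was Clcf1, lower in females by 2.05 ± 0.43 (adjusted p = 0.0349). The call was lost without any 1 of female tumours 1 (adjusted p = 0.0964), 2 (0.0811) and 3 (0.0975) or of male tumours 2 (0.0916) and 3 (0.147). In limma voom with quality weights 6 of the 10 passed, against 18.3% of all genes in that fit, among them Osm at 2.42 (adjusted p = 0.00671) and Osmr at 0.55 (adjusted p = 0.0331), both higher in females, whereas edgeR gave Osm 1.81 ± 0.83 (adjusted p = 0.225) and Osmr 0.50 ± 0.24 (adjusted p = 0.237). In wild-type normal colon 2 of the 10 were lower in females, against 15.9% of all genes called. Clcf1 was 2.83-fold lower (adjusted p = 0.0365) with overlapping groups. Its log2 fold change was -0.78 without male replicate 1 (adjusted p = 0.31), and its call was also lost without female replicate 1 (0.108) or 2 (0.148). Il6st differed by -0.49 ± 0.12 (adjusted p = 0.0087) with no overlap, and lost its call without male replicate 1 (0.0551). Il11 was lower at -2.75 ± 0.97 without passing (adjusted p = 0.0645), and passed without male replicate 3 (0.0156). Endothelial markers (5 of 5 lower) summed to 70.2 to 98.3 CPM in these females and 141 to 241 CPM in these males, and fibroblast markers (5 of 10 lower) to 1193 to 1424 and 2454 to 2754 CPM, with none at 0. Their part in these results was not tested. In knock-in normal colon 0 of the 10 passed in edgeR, DESeq2 or limma voom, against 0.584% of all genes. Of the 10 genes, 1 (Lifr) had an unadjusted p under 0.05, at 0.56 ± 0.25 (adjusted p = 0.283), beside 2433 of the 15936 genes tested. The tumour change differed between wild-type sexes for 0 of the 10 in edgeR, against 1.12% of all genes. Il11 and Il6st, 2 genes, had an unadjusted p under 0.05, beside 2198 of the 15936 genes tested. DESeq2 (2.75% of all genes in that fit) and limma voom (9.07%) called 2 each.

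Of the other genes of the gp130 family, Ctf1, Cntfr, Il11ra1 and Il27ra had counts enough to test. Cntf, Il27, Ebi3 and Il31ra were among those that did not. Il11ra1, the binding chain for IL-11, fell in tumours of wild-type females (-0.50 ± 0.18, adjusted p = 0.0269) and of knock-in males (-0.57 ± 0.18, adjusted p = 0.03). Its means were 12.7 ± 2.1 CPM in knock-in male tumours and 18.7 ± 0.9 CPM in normal colon (SD, n = 3). Cntfr, the ciliary neurotrophic factor receptor, fell in wild-type male tumours (-2.75 ± 0.63, adjusted p = 0.00279) and was higher in knock-in than wild-type female normal colon (1.87 ± 0.52, adjusted p = 0.0216), at no more than 1.32 CPM in any library of those groups. Il27ra, the interleukin-27 receptor, fell in knock-in male tumours (-1.38 ± 0.48, adjusted p = 0.0499). The ligand gene Ctf1, which encodes cardiotrophin-1, passed in none of these comparisons.

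The signalling genes below gp130, 20 of 20 tested, had few members past the test. In wild-type females 3 rose and 2 fell (49.1% of all genes called), in wild-type males 2 rose and 2 fell (35.7%), and in knock-in males 2 rose (20.4%), with medians between -0.05 and 0.07. Adam10, a membrane protease known to shed the IL-6 receptor, rose in all 3 comparisons, by 0.66 ± 0.18 in wild-type females (adjusted p = 0.00574), 0.55 ± 0.18 in wild-type males (adjusted p = 0.0254) and 0.77 ± 0.18 in knock-in males (adjusted p = 0.00888). Stat3 itself rose in wild-type males by 0.34 ± 0.12 (adjusted p = 0.0346). Socs2, another cytokine feedback inhibitor, fell in wild-type males by 1.52 ± 0.28 (adjusted p = 0.00049) and in wild-type females by 0.76 ± 0.27 (adjusted p = 0.0273), and among male tumours it was higher in the knock-in mice, by 1.00 ± 0.28 (adjusted p = 0.0271).

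Textbook STAT3 target genes, 24 of 26 tested, were counted in the same way. In wild-type females 14 rose and 4 fell (median log2 fold change 1.39, 49.1% of all genes called), and in wild-type males 12 rose and 1 fell (0.98, 35.7%). In knock-in males 4 rose and 1 fell (0.28), a share close to the 20.4% of all genes called there. These 3 comparisons were not tested against each other for the list. The largest female rises were Lcn2, which encodes the iron-trapping protein lipocalin-2 (6.16 ± 1.12, adjusted p = 0.000344), Saa3, a serum amyloid A gene (5.61 ± 1.20, adjusted p = 0.00118), and Reg3g, which encodes an antimicrobial lectin (5.30 ± 1.5, adjusted p = 0.0088). Saa1 and Saa2, of the same amyloid family, fell in females (-3.23 ± 0.71 and -2.38 ± 0.93, adjusted p = 0.00152 and 0.0417), as did the immediate-early gene Fos (-1.22 ± 0.41, adjusted p = 0.0208). Reads of near-identical Saa genes may be split between them, so their values are uncertain. In wild-type males Saa3 (2.89 ± 0.97, adjusted p = 0.031), Lcn2 (2.79 ± 0.91, adjusted p = 0.0261) and the protease inhibitor Timp1 (1.69 ± 0.39, adjusted p = 0.00267) led, and the survival gene Mcl1 fell (-0.45 ± 0.16, adjusted p = 0.0365). In knock-in males Saa3 (3.24 ± 1.03, adjusted p = 0.037), the cyclin gene Ccnd1 (0.91 ± 0.18, adjusted p = 0.00357) and Birc5, which encodes survivin (0.81 ± 0.23, adjusted p = 0.0223), led, and Saa1 fell (-3.43 ± 0.72, adjusted p = 0.00605). Lcn2 and Saa3 are also made by neutrophils, whose markers are given above, and macrophages. Macrophage and monocyte markers summed to 231 to 301 CPM in wild-type female tumours and 155 to 201 CPM in their normal colon. The sums were 223 to 350 and 132 to 271 CPM in wild-type males, and 153 to 220 and 200 to 261 CPM in knock-in males. The part of these cells in the target gene results was not tested.

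Between knock-in and wild-type male tumours, 4 of the 24 targets fell and 0 rose (median -0.49), beside 14.5% of all genes called. The log2 fold changes were -1.08 ± 0.27 for Junb (adjusted p = 0.0204), -1.04 ± 0.28 for Bcl3 (adjusted p = 0.0245), -0.97 ± 0.29 for Myc (adjusted p = 0.0343) and -0.54 ± 0.15 for Bcl2l1 (adjusted p = 0.0254). The first 3 encode transcriptional regulators and the last a survival protein.

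**Figure D4:**
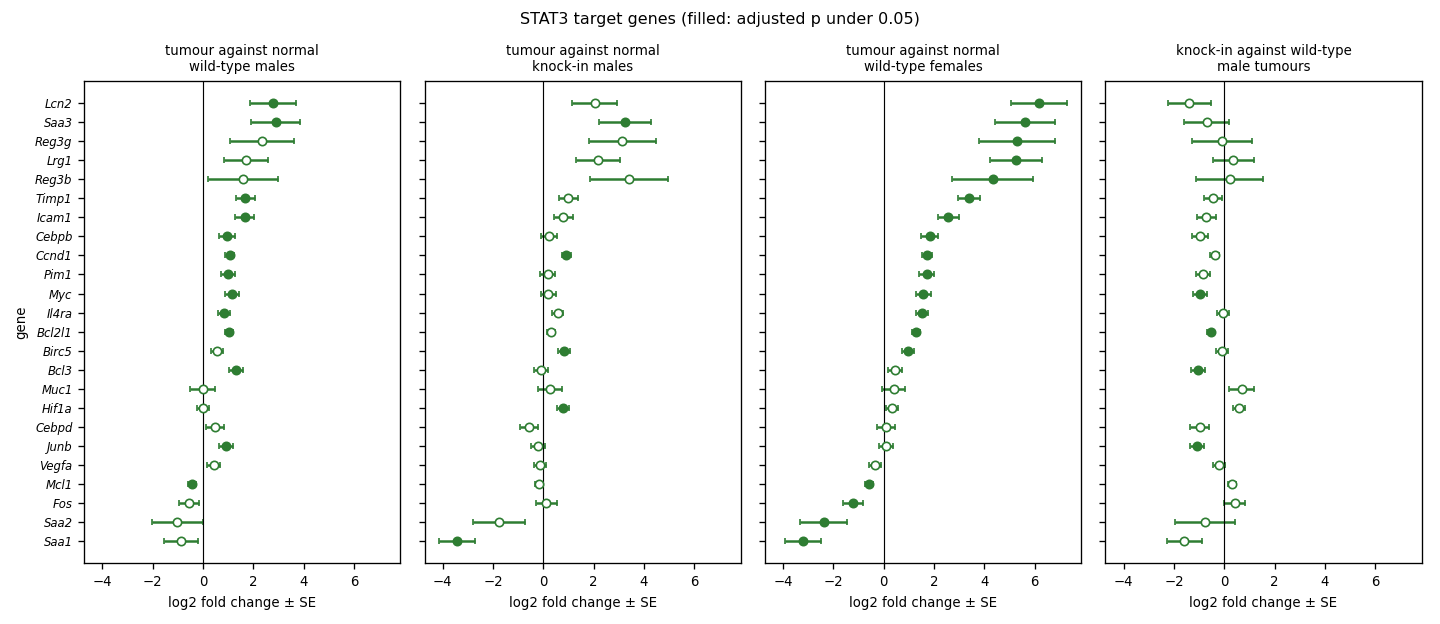
log2 fold change (x axis, with standard error) of the 24 tested STAT3 target genes (y axis, ordered by the wild-type female values) in the 3 tumour comparisons and between knock-in and wild-type male tumours. Filled points passed an adjusted p of 0.05. Filled points on the higher side number 12, 4 and 14 in the tumour panels and 0 in the last.

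The genes whose log2 CPM followed these genes most closely were sought over the 21 libraries among 12624 candidates. These correlations carry the difference between tumour and normal samples and are descriptions without a test. Il11 was followed most closely by Cemip, a hyaluronan-degrading enzyme gene (Pearson r = 0.97), Inhba, which encodes an activin subunit (0.97), and Mmp13, a collagenase gene (0.96). Osmr was followed by Ripk3, a kinase gene of necroptosis (0.93), Crem, a cyclic AMP-responsive regulator (0.93), and Polq, a DNA polymerase gene (0.92). For Socs3 the closest were Mfsd2a, a lysophospholipid transporter gene (0.95), Tnfrsf1b, a tumour necrosis factor receptor gene (0.93), and Pgs1, a phospholipid synthesis gene (0.93). After removing group means, the closest pairs among the 10 genes were Osmr with Socs3 (r = 0.72), Osm with Socs3 (0.70), Il6 with Il11 (0.64) and Il11 with Osmr (0.63) over 21 libraries. Il6ra ran against Osm (-0.54) and Socs3 (-0.51) within groups. These pairs share libraries and scaling.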

How the data were processed

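The authors deposited whole-number counts per gene and library. The submitters' processing notes list mm10, Trimmomatic, HISAT2, featureCounts and DESeq2, without versions or roles. Annotation and strand setting are not given in the sources used here, so overlapping and near-identical genes are uncertain. The authors' own comparison table was not used. The name of 1 knock-in female normal column occurs 2 times in the header, and both columns were used as unnumbered replicates a and b.

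All 21 libraries and 7 groups entered 1 fit of edgeR 4.0.16 (R 4.3.3) with TMM scaling, filterByExpr and the robust quasi-likelihood test, covering 9 pair comparisons and 3 interactions. SE is the log2 fold change divided by the root of F. Comparisons share libraries, so their results are not independent. DESeq2 1.42.0 and limma 3.58.1 were alternatives, and the fit was tested on simulated data. Same-numbered samples deviated together for all 3 numbers only between wild-type male tumour and normal colon (r = 0.17, 0.17 and 0.21), with the numbers taken from the sample labels. The largest single r, 0.46, was for replicate 1 between genotypes in male normal colon. Those samples cannot share an animal, so an r of this size does not show pairing. The replicate block changed no count of calls between wild-type male tumour and normal colon. It gives each replicate number a shift shared by all groups in that fit, so it cannot test pairing in those males. Log2 CPM used a prior count of 2 and the limit at 0 is 3 counts. The 10 genes and all gene lists were chosen with earlier results of these data known. Named genes are the 10, App, the other tested gp130 family genes (1 is not reported here), up to 3 higher and 3 lower of the other lists in each tumour comparison and between male tumours, and the 3 genes most like Il11, Osmr and Socs3. Adam10, Stat3 and Bcl2l1 were named after their values were seen. Gene coordinates are from GENCODE (GRCm38).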

Additional observations from a re-analysis of the deposited data

How the results depend on the processing

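Of 21 results of single genes past the threshold, 9 kept their call under every alternative that gave a value and with every single library left out, and for 11 a single library decided the call. No group mean moved by more than its SD under DESeq2 size factors or library totals. Some of these SDs were larger than the mean, as for Il6 in wild-type male tumours (2.55 ± 4.10 CPM). For such means this check could hardly fail. The number of the 10 genes called, with 1 library left out, ran from 7 to 9 (8 in the main analysis) in wild-type females, 2 to 6 (5) in wild-type males and 1 to 2 (2) in knock-in males. For knock-in against wild-type it ran from 0 to 1 (1) in male tumours, 0 to 0 (0) in male and 0 to 4 (2) in female normal colon. For females against males it ran from 0 to 1 (1) in tumours, 0 to 3 (2) in wild-type and 0 to 0 (0) in knock-in normal colon, and for the 3 interactions from 0 to 1, 0 to 2 and 0 to 1 (each 0).

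Fitted on the compared groups alone, 1 was called in knock-in male tumours (4.72% of all genes in that fit), 2 in wild-type male tumours (35.2%), and between sexes 2 in tumours (8.1%) and 0 in wild-type normal colon (10.9%). A filter for a mean of at least 50 counts removed Il6, Osm and Clcf1 before the test, so none of them could be called there. It left 5 in wild-type females (54% of all genes in that fit) and 0 between genotypes in male tumours (19.2%). Between sexes it left 0 in tumours (2.72%) and 1 in wild-type normal colon (20.5%). DESeq2's Wald test called 4 between genotypes in female normal colon (14.5% of all genes in that fit). It called 0 between sexes in tumours (4.23%), where Clcf1 had no adjusted p. In the interactions it called 1 for genotype and tumour (6.33%), 2 for sex and tumour (2.75%) and 1 for genotype and sex (4.39%). limma voom called 6 between sexes in tumours (18.3% of all genes) and 2 in the interaction of sex and tumour (9.07%). Library totals gave 1 in that interaction (1.95%). A term for the libraries numbered 152 and above (3 tumours) left 0 between sexes in tumours (1.05% of all genes). It also ended the female tumour calls of Clcf1 (adjusted p = 0.0939) and Il6ra (0.0563). The replicate block gave 0 between sexes in tumours (0.78% of all genes) and 1 in normal colon (14.5%), and changed no other count of calls. It could not be fitted with knock-in female normal colon, which has 1 numbered column. Without replicate 2 of both wild-type male groups, added after seeing the data, 3 were called. With 1 library left out the log2 fold change of Il6 in wild-type males ran from -0.47 (without tumour replicate 2) to 4.30 (without normal replicate 2). That of Socs3 in wild-type females ran from -0.19 (without normal replicate 1) to 2.24 (without normal replicate 2), and was -0.13 without normal replicate 3. That of Il11 between genotypes in male normal colon ran from -2.53 (without wild-type replicate 3) to 0.064 (without wild-type replicate 2). The cause of these changes was not tested. Depth limits Il6, Osm and Clcf1, which had few counts in normal libraries.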
